A study of Mus musculus with 42 samples.

Results

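The genes described here are the 8 genes of DNA methylation and demethylation that were picked by name and have a row in the expression table: Dnmt1, Dnmt3b, Dnmt3l, Tet1, Tet2, Tet3, Tdg and Dppa3, out of 15737 genes with a symbol listed once. The rule names the genes and uses no expression value, but the genes were chosen with earlier results of these data known. RNA was measured in whole embryos of ICR mice, from superovulated females mated with ICR males (parents aged 6 to 8 weeks), and by the methods each library held 3 embryos and each group 2 libraries. The labels give 18 RNA-seq samples in 9 groups. Untreated or control embryos were taken at the early 2-cell stage (34 h after the hCG injection), the late 2-cell stage (48 h) and the 4-cell stage (58 h). Late 2-cell and 4-cell embryos were also cultured with FK866, which blocks NAMPT, the enzyme that makes the NAD+ precursor NMN from nicotinamide, or with FK866 and added NMN. Other embryos collected at the late 2-cell stage had been given TSA, an inhibitor of class I and II histone deacetylases, or had Sirt1, an NAD+-dependent deacetylase, knocked down. The study describes TSA treatment as starting at the early 2-cell stage and FK866 treatment as starting in zygotes. FK866 was used at 0.01 µM, NMN at 10 µM and TSA at 10 nM, with 0.05% DMSO in the controls. All embryos carried the genotype WT in the labels, and the knockdown came from siRNA together with Trim21 mRNA and an antibody injected into zygotes, for which scrambled siRNA with Trim21 mRNA was the stated control. None of the 9 groups is named in the labels as that injection control, so the knockdown was compared with the late 2-cell control column. An effect of the injection cannot be told apart from the knockdown in that comparison. The H3K27ac samples of the series were not analysed here.

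DNA methylation is laid down by DNMT3A and DNMT3B, helped by the inactive partner DNMT3L, and is copied at replication by DNMT1. TET enzymes oxidise 5-methylcytosine, the glycosylase TDG removes the more oxidised forms, and DPPA3 (also called STELLA or PGC7) protects the maternal genome of the zygote from that oxidation. Mouse embryos lose much of the methylation inherited from the gametes over the first divisions, and Tet3, Dnmt3l and Dppa3 are known as genes whose transcripts the oocyte stores. Dnmt3a was not analysed here.

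The table holds 1 column for each group, in FPKM, that is reads per kilobase of exon scaled to library size. Because the values are whole reads divided by exon length and library total, 7 columns could be separated into 2 libraries that had been added together, while 2 columns (4-cell-FK866; 4-cell-FK866-NMN) held a single library. The 16 libraries found had totals of 3169677 to 10003481 reads. They carry no replicate number, so those of a column are called the larger and the smaller by their totals. Levels are given per library, and limits at 0 reads cover counting error only.

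In 5 of the 9 columns the study's own gene lists point to another group than the header, so each comparison was read both ways. The values listed for the 4-cell control, 4-cell FK866 and 4-cell FK866 with NMN were found for 84 of 84 listed genes in the columns headed late-2-cell-TSA, late-2-cell-Sirt1 and 4-cell-con, in that order. In the columns whose headers name these groups, the listed values were found for 4, 0 and 3 of 84 genes. The listed 4-cell values therefore follow the reading by the gene lists and not the headers. For the late 2-cell TSA list, held here only in part, the direction against the late 2-cell control matched in 1203 of 1203 genes in the column headed 4-cell-FK866, against 546 in the column headed late-2-cell-TSA and 1096 in the next best, early-2-cell. For the Sirt1 knockdown the direction matched in 773 of 821 genes in the column headed 4-cell-FK866-NMN, against 442 in the column headed late-2-cell-Sirt1 and 703 in the next best, late-2-cell-FK866. The late 2-cell lists were matched by the columns of the same name for 117, 118 and 117 of 118 genes (control, FK866 and FK866 with NMN). Values below follow the headers first, then the gene lists, and columns are named by their headers throughout. For these 5 columns, a treatment or stage given by the headers is that of the header only. No treatment effect is claimed from it.

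The Sirt1 level, which checks the knockdown label, was 32.4 and 73.1 FPKM in the libraries of the late-2-cell-Sirt1 column, against 86.6 and 66.2 FPKM in the late 2-cell control. It was 11.3 FPKM in the 4-cell-FK866-NMN library, 7.61 FPKM in the 4-cell-FK866 library, and 13.5 and 6.18 FPKM in the early 2-cell libraries. A low level thus also occurred without a knockdown and cannot by itself mark the knockdown column. The Sirt1 transcript was not lower in both libraries labelled Sirt1 by the header, and "the column headed late-2-cell-Sirt1" is written for that column below. The 5 2-cell markers (Zscan4c, Zscan4d, Zfp352, Tdpoz3, Tdpoz4) summed to 13.5, 19.2 and 32.3 FPKM in the columns headed late-2-cell-TSA, late-2-cell-Sirt1 and 4-cell-con and to 101 to 291 FPKM in the other 6. Oocyte markers, with 5 of 6 in the rows, summed to 35.3 to 89.8 FPKM in the same 3 columns and to 168 to 1011 FPKM in the others. Zp3 and Tdpoz4 did not follow these sums. Zp3 stood at 30.1 to 51.4 FPKM in the 3 columns and at 15.6 to 63.8 FPKM in the others. Tdpoz4 stood at 5.49 to 8.75 FPKM and at 1.18 to 25.8 FPKM. The other markers of both sets were each lower in the 3 columns than in any other column. Cumulus and granulosa markers, with 5 of 6 in the rows, summed to 0 to 8.12 FPKM. Of these, Ptx3 and Foxl2 stayed under 0.03 FPKM in every column. Tnfaip6 reached 2.67 FPKM in the late 2-cell control and Star 2.50 FPKM in the 4-cell-FK866-NMN library. Cyp19a1 stood at 2.91 FPKM in that library, and the highest sum, in the 4-cell-FK866 library, was Cyp19a1 alone.

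Promoter sequence is shown for Tet3 and Tet1, which exchanged places as the most abundant Tet transcript between columns, and for Dnmt3b, which had the largest ratios between treated and control columns among the methyltransferases. Each window is the 250 bases before a RefSeq transcription start on GRCm38.p6, written 5′ to 3′ on the strand of the gene, with CpG dinucleotides, the main sites of DNA methylation in mammals, in capitals. The Tet3 window (chr6:83441679-83441928, minus strand) and the Tet1 window (chr10:62887325-62887574, minus strand) lie inside the GENCODE span of their gene, because longer transcripts start further upstream, and the Dnmt3b window (chr2:153649199-153649448, plus strand) ends just before the gene.
Tet3: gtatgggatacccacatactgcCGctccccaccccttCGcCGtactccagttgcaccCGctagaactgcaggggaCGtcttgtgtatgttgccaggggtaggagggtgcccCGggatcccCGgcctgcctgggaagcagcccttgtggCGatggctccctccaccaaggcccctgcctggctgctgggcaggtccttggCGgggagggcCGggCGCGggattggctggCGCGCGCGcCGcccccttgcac
Tet1: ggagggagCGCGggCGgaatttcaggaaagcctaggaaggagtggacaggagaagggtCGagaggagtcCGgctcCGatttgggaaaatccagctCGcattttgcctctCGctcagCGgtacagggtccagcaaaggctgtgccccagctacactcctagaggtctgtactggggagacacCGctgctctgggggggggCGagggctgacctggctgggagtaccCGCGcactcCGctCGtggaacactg
Dnmt3b: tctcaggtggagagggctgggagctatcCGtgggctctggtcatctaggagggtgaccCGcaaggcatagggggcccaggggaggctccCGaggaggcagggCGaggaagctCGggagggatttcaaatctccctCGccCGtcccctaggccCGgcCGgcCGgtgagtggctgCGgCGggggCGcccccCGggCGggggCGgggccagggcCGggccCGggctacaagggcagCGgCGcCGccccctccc

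The Tet3 window held 17 CpG, the Tet1 window 15 and the Dnmt3b window 21, against a median of 6 over all 32851 windows of the table. As many or more were present in 23.5% of all windows for Tet3, 27.3% for Tet1 and 16.3% for Dnmt3b. Of the 8 genes 7 had a window, 11 windows in all, and their counts ran from 2 at a Dnmt1 start to 51 at the Tet2 start. The count is the same on both strands, and at least 1 CpG was found in 92.1% of all windows. RefSeq starts were used without knowing which start the embryo uses.

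Dppa3 was by far the most abundant of the 8 transcripts in every column and ranked between place 7 and place 31 of 15737 genes. Dnmt3l followed in 8 of the 9 columns, and Tet3 in the early 2-cell column. Tdg was the lowest of the 8 in 8 columns and shared that place with Dnmt3b, also at 0, in late-2-cell-FK866-NMN. Over the libraries Dnmt3l ranged from 3.82 to 103 FPKM (median 23.0), Tet3 from 0 to 50.0 (median 12.2), Dnmt1 from 0.785 to 39.9 (median 8.50), Tet1 from 0.0764 to 4.79 (median 2.06), Dnmt3b from 0 to 8.03 (median 1.97) and Tet2 from 0 to 3.66 (median 0.462). Neighbours in this order overlapped widely, apart from Dppa3 at 762 to 4007 FPKM. Libraries of a column differed little for Dppa3, by 1.01- to 1.23-fold, and more for Dnmt1, by 1.18- to 3.96-fold, and Dnmt3l, by 1.12- to 3.17-fold. Where both libraries had reads, they differed by up to 4.43-fold for Tet1, 4.98-fold for Tet2 and 167-fold for Tet3, the last in late-2-cell-Sirt1. GENCODE M21 exon lengths of these genes run from 0.892 kb (Dppa3) to 16.9 kb (Tet2), which FPKM takes into account.

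**Figure D1:**
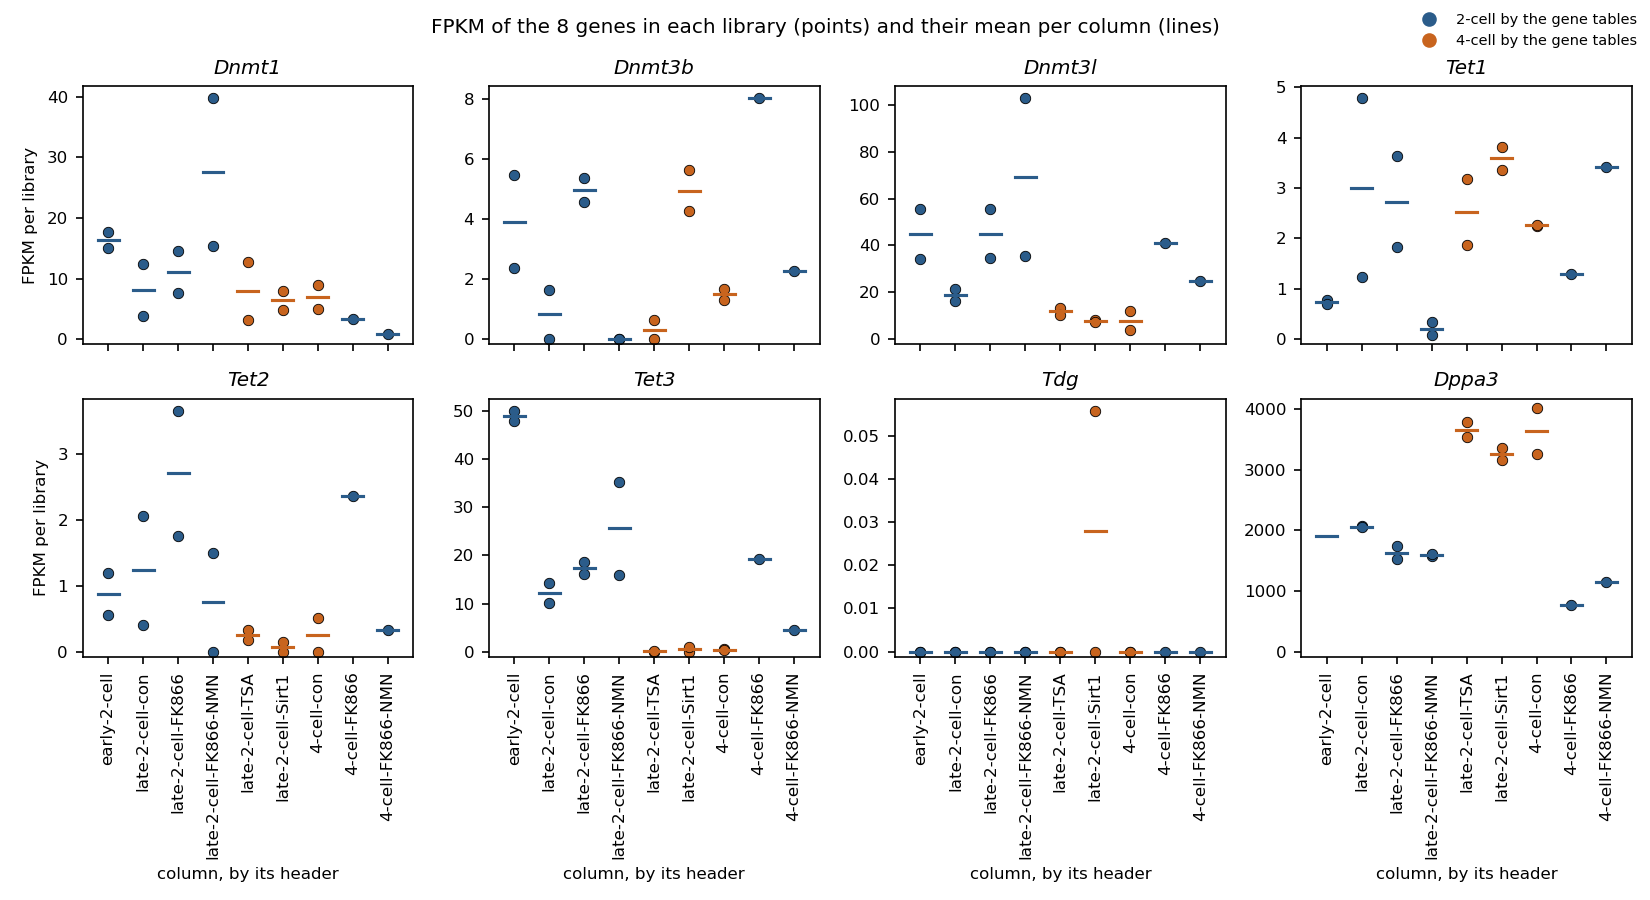
FPKM of each of the 8 genes (vertical axes, each with its own scale from 0) in the 9 columns named by their headers, with 1 point per library and a line at the mean per column. Blue columns are 2-cell groups and orange columns 4-cell groups by the study's gene lists, and the early 2-cell Dppa3 value could not be separated into libraries. The orange columns hold Tet3 between 0 and 1.00 FPKM and Dppa3 between 3161 and 4007 FPKM, apart from all blue libraries.

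Differences were tested with limma on log2(FPKM per library + 1), with all 16 libraries in a single fit and p-values adjusted over every gene that reached 1 FPKM per library in a compared column. A column with a single library was assumed to vary like the others. The study calls the 2 libraries behind its FK866 and NMN expression heatmaps biological replicates. No source says that the libraries of a group came from separate litters, so the p-values measure only the spread between these libraries. In pooled whole embryos, fewer cells of a type and less RNA per cell cannot be told apart. The late 2-cell control enters 5 of the 8 comparisons, and each FK866 column enters 2, so those results share libraries. Tdg stayed under 1 FPKM everywhere and was tested in none.

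From the early to the late 2-cell stage 1 of 6 genes tested passed the threshold, and it was lower (Tet3), where 10.3% of all 9011 genes were called lower and 11% higher. For late 2-cell embryos given FK866, 0 of 7 passed in limma and 1 had an unadjusted p under 0.05, where 0.0579% of all genes were called higher and 0.0463% lower. With NMN added to FK866 at that stage 0 of 7 passed in limma and 2 had an unadjusted p under 0.05, against 0.414% higher and 2.35% lower. In the column headed late-2-cell-TSA, against the late 2-cell control, 1 of 6 was higher (Dppa3) and 1 lower (Tet3), against 6.18% and 12.5%. In the column headed late-2-cell-Sirt1 1 of 7 was higher (Dppa3) and 1 lower (Tet3), against 4.86% and 9.47%. From the late 2-cell control to the column headed 4-cell-con 1 of 7 was higher (Dppa3) and 1 lower (Tet3), against 3.97% and 7.19%. Those 3 comparisons called the same pair of genes and share the same control libraries. In the column headed 4-cell-FK866, against 4-cell-con, 2 of 7 were higher (Tet3 and Dnmt3l) and 1 lower (Dppa3), against 20.3% and 11.2%. In the column headed 4-cell-FK866-NMN, against 4-cell-FK866, 0 of 7 passed in limma and 1 had an unadjusted p under 0.05, against 3.71% and 8.19%.

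Read by the gene lists, the step from the late 2-cell to the 4-cell control uses the column headed late-2-cell-TSA, so its calls are those given for that column. The TSA comparison then called 1 of 7 (Dppa3, lower), against 9.09% of all genes higher and 4.02% lower. The Sirt1 knockdown called 0 of 7 in limma with 2 at an unadjusted p under 0.05 (Dnmt1 and Dppa3, both lower), against 0.738% and 0.218%. FK866 at the 4-cell stage called 0 of 5 with 1 at an unadjusted p under 0.05 (Dnmt3b, higher), against 0.155% and 0.0422%, and NMN added there called 0 of 5 with 0 at an unadjusted p under 0.05, against 0.0269% and 0%. The median log2 fold change over all genes tested was within 0.1 of 0 at the early to late 2-cell step (-0.06) and for late 2-cell FK866 (-0.06). It was -0.49 with NMN at that stage, -0.44 for the column headed late-2-cell-TSA, -0.25 for late-2-cell-Sirt1, -0.11 for 4-cell-con, 0.46 for 4-cell-FK866 against 4-cell-con and -0.29 for 4-cell-FK866-NMN against 4-cell-FK866. By the gene lists it was 0.17 for TSA, -0.12 for the knockdown, 0.12 for 4-cell FK866 and 0.05 for NMN at the 4-cell stage.

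**Figure D2:**
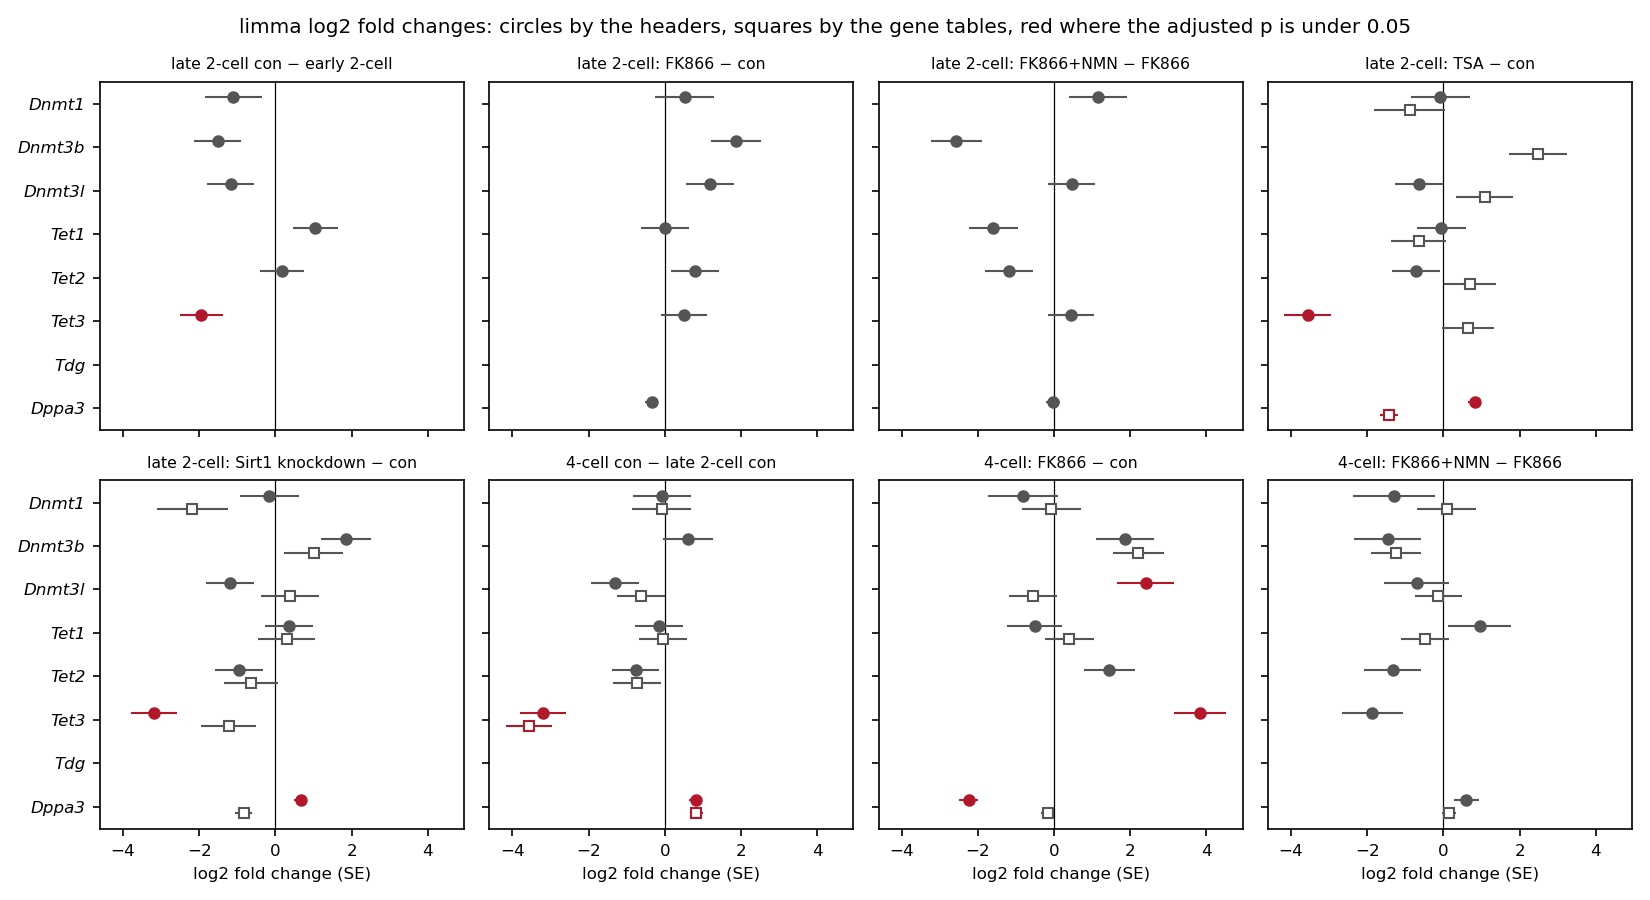
limma log2 fold changes (horizontal axis, with standard errors as bars) of the 8 genes in the 8 comparisons, circles for columns read by their headers and squares for columns read by the gene lists. Red marks an adjusted p under 0.05, a missing mark a gene not tested. Tet3 and Dppa3 hold most of the red marks, and the TSA and Sirt1 panels hold their circles and squares on opposite sides of 0 for Dppa3.

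Dnmt1, the maintenance methyltransferase (ENSMUSG00000004099, chromosome 9, 20907209 to 20959888, minus strand, GRCm38), had 15.0 FPKM in the larger and 17.7 FPKM in the smaller early 2-cell library and 3.91 and 12.3 FPKM in the late 2-cell control. The libraries with FK866 held 7.65 and 14.6 FPKM and those with FK866 and NMN 39.9 and 15.3 FPKM. Only the larger library with NMN stood above both early 2-cell libraries, and the control and FK866 libraries overlapped. Values were 12.8 and 3.24 FPKM in the column headed late-2-cell-TSA, 8.02 and 4.83 FPKM in late-2-cell-Sirt1 and 8.99 and 4.96 FPKM in 4-cell-con, all within or close to the range of the late 2-cell control. The single libraries of 4-cell-FK866 and 4-cell-FK866-NMN held 3.39 and 0.785 FPKM, the lowest of the 16 apart from the smaller late-2-cell-TSA library, which lay between them. No comparison passed the threshold for Dnmt1. The log2 fold change nearest to it by unadjusted p was -2.18 (SE 0.94, adjusted p = 0.388), for the Sirt1 knockdown read by the gene lists, where the level was 10.3-fold lower than in the control.

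Dnmt3b, a de novo methyltransferase (ENSMUSG00000027478, chromosome 2, 153649450 to 153687730, plus strand), was low and uneven. Early 2-cell libraries held 5.45 and 2.36 FPKM, and the late 2-cell control held 0 FPKM (0 reads, which allows up to 0.0901 FPKM) and 1.65 FPKM. With FK866 the level was 5.35 and 4.55 FPKM, above both control libraries. With FK866 and NMN both libraries had 0 reads, which allows up to 0.0694 and 0.110 FPKM, so the level was at least 55.3-fold lower than with FK866 alone when 3 reads per library are put in for 0. The FK866 libraries therefore overlapped neither the control nor the NMN libraries, as did 16.6% of all genes tested in the direction of FK866 over control and 25% in that of NMN under FK866. The log2 fold change was 1.87 (SE 0.66) for FK866 with an adjusted p of 0.331, and -2.57 (SE 0.67) for NMN with an adjusted p of 0.0658, which passed at 0.0369 without the smaller NMN library.

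The other columns held Dnmt3b at 0 and 0.630 FPKM (late-2-cell-TSA), 5.64 and 4.26 FPKM (late-2-cell-Sirt1), 1.68 and 1.31 FPKM (4-cell-con), 8.03 FPKM (4-cell-FK866) and 2.27 FPKM (4-cell-FK866-NMN). Read by the gene lists, the first 3 of these are the 4-cell control, FK866 and FK866 with NMN. The level was then 15.7-fold higher with FK866 than in the 4-cell control and 3.31-fold lower with NMN than with FK866 alone, with log2 fold changes of 2.21 (SE 0.66, adjusted p = 0.287) and -1.25 (SE 0.66, adjusted p = 0.899). Read by the headers, 4-cell FK866 was 5.37-fold above its control (log2 fold change 1.86, SE 0.76, adjusted p = 0.0870) and the NMN library 3.54-fold below FK866 (-1.47, SE 0.87, adjusted p = 0.324). Dnmt3b was thus higher with FK866 than in the control and lower with NMN than with FK866 in each stage and under each reading, and none of these 6 differences passed the threshold. These signs are not independent. The readings are alternatives that use the same late 2-cell columns, and both differences of a stage use the same FK866 libraries. The share of all genes with this pattern was not counted.

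The difference between the FK866 effects at the 4-cell and the late 2-cell stage was tested as a contrast of its own. It was -0.01 (SE 0.98, adjusted p = 0.996) for Dnmt3b by the headers, where 12.2% of all genes were called in either direction, and 0.34 (SE 0.93, adjusted p = 0.917) by the gene lists, where 0% were. TSA and the Sirt1 knockdown read by the gene lists are the 4-cell-FK866 and 4-cell-FK866-NMN columns, and there Dnmt3b was 9.76-fold (log2 fold change 2.47, SE 0.76, adjusted p = 0.0592) and 2.76-fold (1.01, SE 0.78, adjusted p = 0.658) above the late 2-cell control. By the headers TSA gave a level too low to be tested, and the column headed late-2-cell-Sirt1 was 6.02-fold above the control (1.86, SE 0.66, adjusted p = 0.0827).

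Dnmt3l, the catalytically inactive partner of the de novo enzymes (ENSMUSG00000000730, chromosome 10, 78041947 to 78063622, plus strand), held 55.5 and 34.2 FPKM at the early 2-cell stage and 21.3 and 16.5 FPKM in the late 2-cell control. The groups did not overlap, as for 34.1% of all genes in that direction, and the log2 fold change of -1.18 (SE 0.62, adjusted p = 0.186) did not pass. Dnmt3l stood at 34.8 and 55.4 FPKM with FK866 and at 103 and 35.5 FPKM with FK866 and NMN, and both FK866 libraries lay above both control libraries, as for 16.6% of all genes. The FK866 difference of 1.19 (SE 0.63) had an adjusted p of 0.493. The gene has a pseudogene, Dnmt3l-ps1, and how reads that match both were counted is not given in the sources used here.

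Dnmt3l was 13.4 and 10.3 FPKM in late-2-cell-TSA, 8.13 and 7.29 FPKM in late-2-cell-Sirt1 and 12.1 and 3.82 FPKM in 4-cell-con, against 41.0 FPKM in 4-cell-FK866 and 24.8 FPKM in 4-cell-FK866-NMN. The 6 libraries of the first 3 columns, 4-cell by the gene lists, all lay below the other 10, which started at 16.5 FPKM, as did 7.05% of all genes. By the headers Dnmt3l rose 5.14-fold with FK866 at the 4-cell stage (log2 fold change 2.40, SE 0.75, adjusted p = 0.0347). The FK866 arm was a single library. That call ended without the smaller 4-cell-con library (1.68, adjusted p = 0.140) and when each library was centred on its median gene (1.84, adjusted p = 0.207). By the gene lists the 4-cell FK866 column was 1.54-fold below its control, with -0.55 (SE 0.63, adjusted p = 0.794).

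Tet3, the dioxygenase of the oocyte and zygote (ENSMUSG00000034832, chromosome 6, 83362373 to 83459084, minus strand), was high at the early 2-cell stage, with 47.9 and 50.0 FPKM from 4506 and 3880 reads. It was 10.1 and 14.2 FPKM in the late 2-cell control, 4.03-fold lower, and the groups did not overlap, as for 34.1% of all genes in that direction. The log2 fold change was -1.94 (SE 0.56, adjusted p = 0.0328). The adjusted p was 0.0713 and 0.0883 without the larger or the smaller early 2-cell library and 0.0978 without the larger control library, so the call needs each of these 3. It was 0.230 with a pseudocount of 0.1 and 0.0918 when each library was centred on its median gene.

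In late 2-cell embryos Tet3 was 16.0 and 18.7 FPKM with FK866, above both controls, and 35.2 and 16.0 FPKM with FK866 and NMN. These differences were 0.50 (SE 0.60, adjusted p = 0.758) for FK866 and 0.44 (SE 0.61, adjusted p = 0.677) for NMN. In 3 columns Tet3 was at or under 1.00 FPKM. It had 0 reads (up to 0.0262 FPKM) and 0.202 FPKM in late-2-cell-TSA, 0.00599 FPKM (1 read) and 1.00 FPKM in late-2-cell-Sirt1, and 0.602 and 0.258 FPKM in 4-cell-con. The library of 4-cell-FK866 held 19.2 FPKM and that of 4-cell-FK866-NMN 4.54 FPKM. Between the stages, the 6 libraries that the gene lists place at the 4-cell stage thus held at most 1.00 FPKM and the 10 that they place at the 2-cell stage at least 4.54 FPKM. Of all 8996 genes compared this way, 7.05% lay wholly lower in the 6 libraries and 7.8% wholly higher. The 2-cell and oocyte marker sums given above were lowest in the same 3 columns, and their part in the Tet3 and Dppa3 results was not tested.

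By the headers Tet3 fell 120-fold in the TSA column (log2 fold change -3.57, SE 0.60, adjusted p = 0.00210), 24.1-fold in the Sirt1 column (-3.19, SE 0.61, adjusted p = 0.00578) and 28.3-fold from the late 2-cell to the 4-cell control (-3.19, SE 0.60, adjusted p = 0.00730). These ratios rest on few reads. Without the larger library of the column they were 60.2-fold (22 reads left), 12.1-fold (53 reads) and 47.1-fold (20 reads), and without the smaller one 0, 1 and 55 reads are left. The log2 fold changes carry the pseudocount and understate the ratios. It rose 44.6-fold with FK866 at the 4-cell stage (3.83, SE 0.69, adjusted p = 0.00275), where 1 FK866 library of 1499 Tet3 reads stood against 2 control libraries. It was 4.22-fold lower with NMN than with FK866 there (-1.86, SE 0.80, adjusted p = 0.171), a comparison of 2 single libraries. No spread within these single-library groups was measured. By the gene lists the 120-fold fall is the step from late 2-cell to 4-cell control, and the other differences for Tet3 that could be tested were 0.64 (SE 0.68, adjusted p = 0.571) for TSA and -1.23 (SE 0.72, adjusted p = 0.588) for the Sirt1 knockdown. Tet3 was too low in the 3 columns of the 4-cell groups to be tested between them.

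Tet1, the dioxygenase of the inner cell mass and of embryonic stem cells (ENSMUSG00000047146, chromosome 10, 62804570 to 62908996, minus strand), was 0.769 and 0.697 FPKM at the early 2-cell stage and 4.79 and 1.23 FPKM in the late 2-cell control. The higher level at the later stage, 4.11-fold, had a log2 fold change of 1.05 (SE 0.60, adjusted p = 0.216). It was 3.63 and 1.82 FPKM with FK866, within the control range, and 0.0764 and 0.339 FPKM with FK866 and NMN, the lowest of all libraries. NMN was 13.1-fold below FK866 alone (-1.59, SE 0.64, adjusted p = 0.215). The other columns held 1.87 and 3.18 FPKM (late-2-cell-TSA), 3.81 and 3.37 FPKM (late-2-cell-Sirt1), 2.26 and 2.26 FPKM (4-cell-con), 1.28 FPKM (4-cell-FK866) and 3.42 FPKM (4-cell-FK866-NMN). Tet1 passed the threshold in no comparison under either reading.

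Tet2, the third gene of the family (ENSMUSG00000040943, chromosome 3, 133463679 to 133545139, minus strand), stayed low. It was 0.557 and 1.20 FPKM in early 2-cell embryos and 2.05 and 0.413 FPKM in the late 2-cell control, which overlap. It was 1.76 and 3.66 FPKM with FK866, and 1.51 and 0 FPKM (0 reads, up to 0.0332 FPKM) with FK866 and NMN. The remaining values were 0.182 and 0.327 FPKM in late-2-cell-TSA, 0.142 and 0 FPKM in late-2-cell-Sirt1, 0 and 0.511 FPKM in 4-cell-con, 2.37 FPKM in 4-cell-FK866 and 0.335 FPKM in 4-cell-FK866-NMN. No Tet2 difference passed the threshold. The nearest by unadjusted p was 4-cell FK866 over its control by the headers, 9.27-fold with a log2 fold change of 1.45 (SE 0.67, adjusted p = 0.121).

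Within the family Tet3 made up 96.3% and 97.3% of the summed Tet FPKM in the early 2-cell libraries and 54.8% to 97.9% in the 10 libraries placed at the 2-cell stage by the gene lists. Tet1 made up 74.6% to 96.3% in the 6 libraries placed at the 4-cell stage. The sum itself was 8.30 to 51.9 FPKM in the former and 2.05 to 4.37 FPKM in the latter. The larger share of Tet1 came with a Tet1 level inside the range of the 2-cell libraries, 1.87 to 3.81 FPKM against 0.0764 to 4.79 FPKM, while Tet3 lay outside it.

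**Figure D3:**
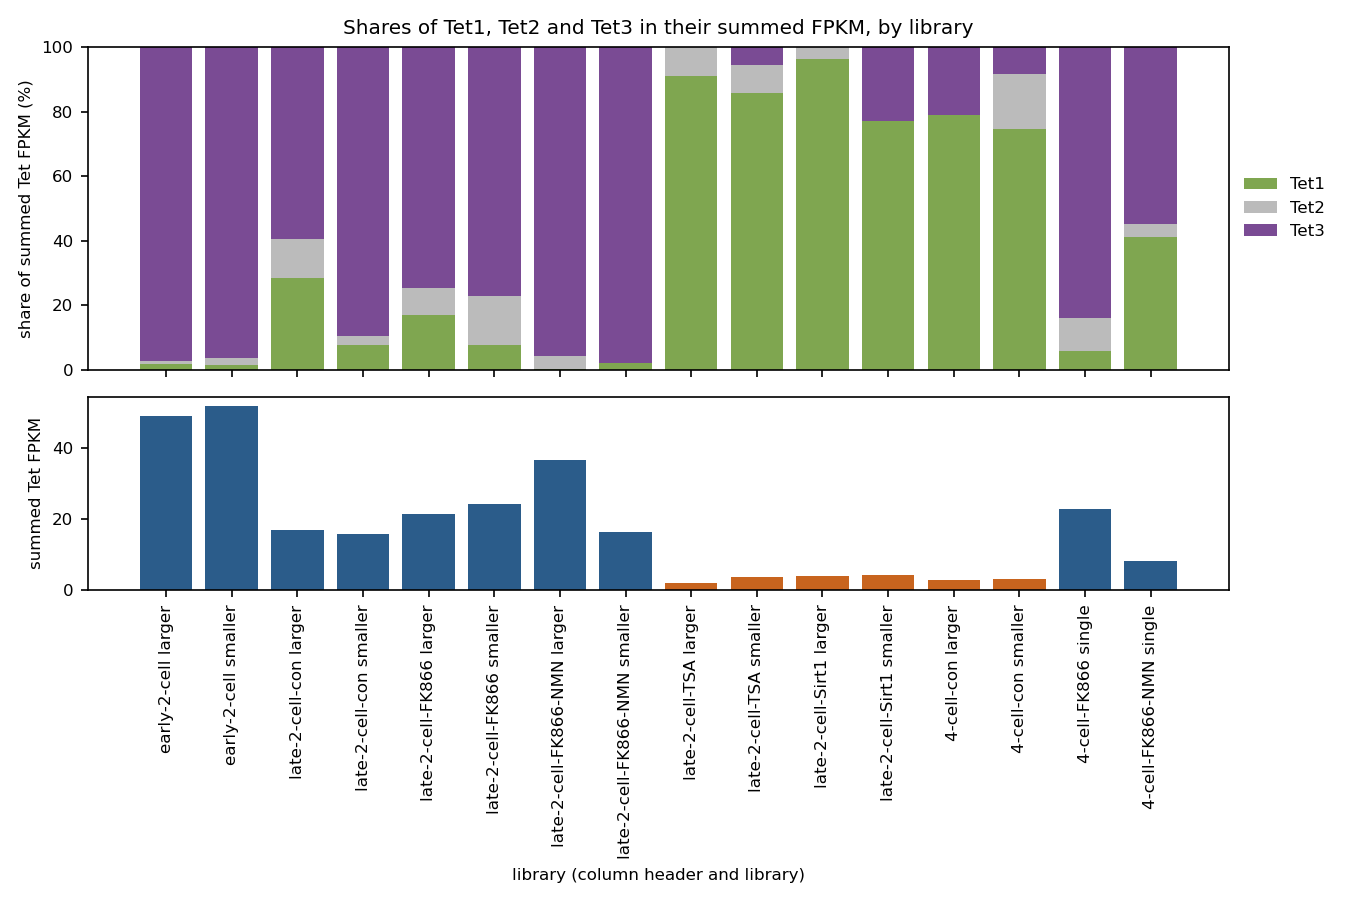
The upper bars give the share of Tet1, Tet2 and Tet3 in their summed FPKM (%) and the lower bars that sum (FPKM), for each of the 16 libraries named by column header. Orange lower bars are 4-cell libraries by the gene lists, blue ones 2-cell libraries. Tet3 holds at least 54.8% of the sum in each blue library and Tet1 at least 74.6% in each orange library.

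Tdg, the thymine DNA glycosylase that excises formyl- and carboxylcytosine (ENSMUSG00000034674, chromosome 10, 82629828 to 82650799, plus strand), had 0 reads in 15 of the 16 libraries. The larger library of the late-2-cell-Sirt1 column had 3 reads, or 0.0558 FPKM. A count of 0 allowed up to 0.0623 to 0.176 FPKM in the others, so a level below that was not detectable at this depth. Tdg has pseudogenes of close sequence (Tdg-ps, Gm9855), and the treatment of reads matching several places is not given in the sources used here, so its level is uncertain.

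Dppa3, the maternal factor that shields 5-methylcytosine from oxidation and restrains UHRF1 (ENSMUSG00000046323, chromosome 6, 122626410 to 122630272, plus strand), had a mean of 1911 FPKM per library in the early 2-cell column and 2069 and 2048 FPKM in the late 2-cell control, a log2 ratio of 0.11 between the columns. The early 2-cell value has 2 solutions, 1945 with 1876 FPKM or 2483 with 1339 FPKM, and was therefore not tested. It was 1742 and 1519 FPKM with FK866, below both controls as were 20.3% of all genes, and 1574 and 1613 FPKM with FK866 and NMN. The differences were -0.34 (SE 0.17, adjusted p = 0.487) for FK866 and -0.03 (SE 0.18, adjusted p = 0.936) for NMN. Dppa3 also has a pseudogene, Dppa3-ps, with which it may share reads.

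Dppa3 was 3777 and 3530 FPKM in late-2-cell-TSA, 3161 and 3351 FPKM in late-2-cell-Sirt1 and 3255 and 4007 FPKM in 4-cell-con. It was 762 FPKM in 4-cell-FK866 and 1154 FPKM in 4-cell-FK866-NMN. The 6 libraries of the former 3 columns lay above the 8 others with a value, and the last 2 lay below all others. Of genes with a value in all 16 libraries, 7.8% lay wholly higher in those 6 than in the other 10. Dppa3 is not among those genes, because its early 2-cell libraries were not separated. Against the late 2-cell control, Dppa3 was 1.77-fold higher in the column headed late-2-cell-TSA (log2 fold change 0.83, SE 0.17, adjusted p = 0.00765). It was 1.58-fold higher in the column headed late-2-cell-Sirt1 (0.66, SE 0.17, adjusted p = 0.0243) and 1.76-fold higher in 4-cell-con (0.81, SE 0.17, adjusted p = 0.0151). In the single 4-cell-FK866 library it was 4.76-fold lower than in 4-cell-con (log2 fold change -2.24). By the gene lists the rise of 1.77-fold is the step from the late 2-cell to the 4-cell control. Dppa3 then fell 2.70-fold with TSA (-1.43, SE 0.24, adjusted p = 0.00417) and was 1.78-fold below the control with the Sirt1 knockdown (-0.83, SE 0.22, adjusted p = 0.136). The sign for TSA and for the knockdown is therefore opposite under these readings. FK866 at the 4-cell stage by the gene lists gave -0.17 (SE 0.18, adjusted p = 0.777) and NMN 0.15 (SE 0.18, adjusted p = 1.00).

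The 3 Dppa3 rises by the headers each lost their call without some single library. For the TSA column the adjusted p was 0.0636 and 0.0552 without either control library and 0.0728 without the larger TSA library. For the column headed late-2-cell-Sirt1 it was 0.0971 to 0.117 without any of the 4 libraries. For 4-cell-con it was 0.0744 to 0.140 without either control library or the smaller 4-cell library. The fall with FK866 at the 4-cell stage by the headers rests on a single FK866 library that no alternative could leave out, so the spread in that group was not measured.

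**Figure D4:**
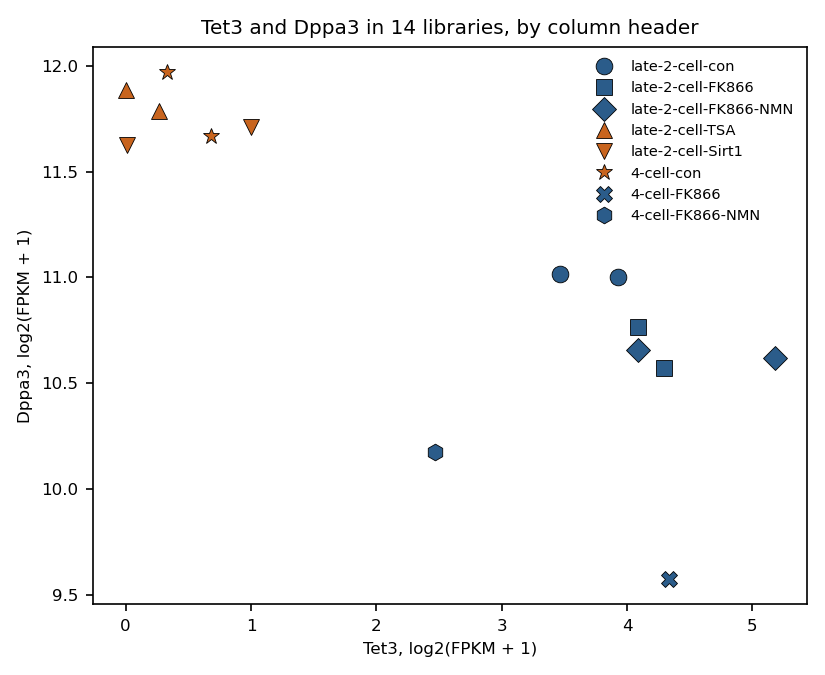
Tet3 (horizontal axis) against Dppa3 (vertical axis), both as log2(FPKM + 1), in the 14 libraries with a value for each gene, with a symbol per column header. The Dppa3 axis does not start at 0. Orange symbols are 4-cell libraries by the gene lists, blue ones 2-cell libraries. The 6 orange points lie at Tet3 of at most 1.00 FPKM and Dppa3 of at least 3161 FPKM, apart from the blue points.

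The other genes of the pathway were taken from 4 lists with 43 genes, of which 26 have a row. Genes outside chromosomes 1 to 11 cannot have a row, so a missing row does not mean that a gene was not expressed. From the early to the late 2-cell stage 4 of 21 tested rose and 2 fell, against 11% and 10.3% of all genes. Gadd45a and Gadd45b, cofactors of repair-linked demethylation, rose by 4.07 (SE 0.74, adjusted p = 0.00357) and 3.68 (SE 0.47, adjusted p = 0.000470) on the log2 scale, from 8.37 to 166 FPKM and from 6.51 to 97.0 FPKM per library. Cdca7, the partner of the remodeler HELLS, rose by 2.48 (SE 0.63, adjusted p = 0.0194) and the deaminase Apobec1 by 2.91 (SE 0.76, adjusted p = 0.0210). The repair polymerase Polb fell by 2.15 (SE 0.52, adjusted p = 0.0154) and the thymine glycosylase Mbd4 by 1.58 (SE 0.45, adjusted p = 0.0303). The median over the 21 was 0.43, against -0.06 over all genes tested.

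FK866 in late 2-cell embryos called 0 of 22 list genes in limma with 4 at an unadjusted p under 0.05, and NMN added there called 0 of 21 with 3. Apobec1 and Gadd45a were lower in late-2-cell-TSA than in the late 2-cell control (-2.92, SE 0.78, adjusted p = 0.0219 and -2.53, SE 0.73, adjusted p = 0.0311), and Apobec1 in 4-cell-con (-2.96, SE 0.77, adjusted p = 0.0311). Parp1, the NAD+-consuming poly(ADP-ribose) polymerase of base excision repair, was higher in the column headed late-2-cell-Sirt1 (2.43, SE 0.71, adjusted p = 0.0407). These made up 2 of 21, 1 of 23 and 1 of 22 list genes tested, against 12.5%, 7.19% and 4.86% of all genes in the same direction.

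Against 4-cell-con, the column headed 4-cell-FK866 had 5 of 22 list genes lower and 0 higher, against 11.2% and 20.3% of all genes. They were Cdca7 (-4.17, SE 0.78, adjusted p = 0.00347), Parp1 (-4.12, SE 0.85, adjusted p = 0.00564), Mat2a, which makes the methyl donor S-adenosylmethionine (-3.43, SE 0.63, adjusted p = 0.00326), the imprint protector Zfp445 (-3.02, SE 0.84, adjusted p = 0.0220) and the uracil glycosylase Ung (-2.80, SE 0.59, adjusted p = 0.00611). Cdca7 and Mbd4 were higher in 4-cell-FK866-NMN than in 4-cell-FK866, by 3.78 (SE 0.91, adjusted p = 0.0232) and 2.72 (SE 0.55, adjusted p = 0.00946), among 22 tested where 3.71% of all genes were called higher. Each of these columns is a single library, so the SE and p come wholly from the spread in other groups. Mat2a, Parp1 and Ung stood at 151 to 193, 21.4 to 30.9 and 42.3 to 49.0 FPKM in the 3 columns placed at the 4-cell stage by the gene lists. In the other 6 columns they stood at 12.9 to 55.8, 0.282 to 4.80 and 5.46 to 31.3 FPKM. Cdca7 and Zfp445 lay apart in the same direction, at 17.0 to 21.2 and 4.36 to 7.31 FPKM against at most 12.7 and 3.99 FPKM. All these genes had been picked by their call against 4-cell-con, 1 of the 3 columns, so the separation is partly built in. By single libraries, 7.8% of all genes lay wholly higher in the 3 columns. That rule is stricter than the column means used for these genes, for which the share of all genes was not counted.

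By the gene lists the TSA comparison had Cdca7 (-3.52, SE 0.78, adjusted p = 0.0138) and Ung (-2.24, SE 0.59, adjusted p = 0.0314) lower among 21 list genes tested, against 4.02% of all genes. The Sirt1 knockdown called 0 of 22 with 1 at an unadjusted p under 0.05, 4-cell FK866 0 of 21 with 3, and NMN at the 4-cell stage 0 of 22 with 0. The remaining methyltransferase in the rows, Dnmt3c, known from the male germ line, ranged from 0 to 2.77 FPKM over the libraries.

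The genes whose levels followed each member most closely over the 9 columns were picked by Pearson's r of log2(FPKM per library + 1) among 8071 genes (8072 for Tet1 and Tet2) with at least 5 FPKM in a column. They were Myo16 (0.99), Tmem14a (0.99) and Sec61b (0.99) for Tet3, Gpat3 (0.99), Zmpste24 (0.97) and Chchd2-ps (0.97) for Dppa3, and Trp53inp2 (0.99), Ttc23 (0.98) and Cyb5r4 (0.98) for Dnmt3l. For Dnmt1 they were Eif4g3 (0.96), Nfkbib (0.96) and Hmgxb4 (0.94), and for Dnmt3b Gm14388 (0.92), Slc25a4 (0.92) and Atp6v0a2 (0.91). For Tet1 they were Snrnp35 (0.98), Gm5526 (0.95) and Pus1 (0.94), and for Tet2 they included Gm45304 (0.95) and Gm11448 (0.95). The 9 points share their library totals within a column, and the highest of so many values over 9 points is large by choice, so these are descriptions.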

How the data were processed

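The authors trimmed the reads, mapped them with HISAT2 (mm10), assigned them to genes by featureCounts and deposited FPKM values, although the table is named for counts; the submitters' processing notes also name CASAVA 1.4. It holds 15747 complete rows on chromosomes 1 to 11 and a truncated last one, which was left out, and 0 columns of other series. FPKM times GENCODE M21 exon length was solved for whole reads (tolerance 0.6 of the last digit), which gave exactly 1 solution for 96.9% to 97.8% of values above 0 per column. The libraries of a column were thus separated, a step not in the deposited data. limma 3.58.1 (R 4.3.3) with a mean-variance trend was fitted to log2(FPKM per library + 1) over 16 libraries and 9 groups, with Benjamini-Hochberg adjustment over genes reaching 1 FPKM per library in a compared group and a threshold of 0.05. A limit at 0 is 3 reads. The separation was run on simulated reads, and the fit on 1 simulated contrast of 2 groups with 2 libraries each. That simulated contrast had a fixed spread, so it does not cover single-library groups or genes that vary more between libraries. Tables were made with Python 3.11.15 and pandas 2.3.3. Genes named are the 8 members, list genes past the threshold, and the 3 genes most correlated with each member, of which 1 is not reported here. Members and lists were chosen with earlier results of these data known. Alternatives were pseudocounts of 0.1 and 5, no filter, a minimum of 5 FPKM, centring each library on its median gene, fitting only the 2 groups compared, leaving out each library, and the other reading of the columns. Where the columns were read by the study's gene lists, these lists served to name columns only. A sequence window for Dppa3 was not used here.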

Additional observations from a re-analysis of the deposited data

Results flagged for a closer look

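The FK866 difference of Tet3 at the 4-cell stage exceeded that at the late 2-cell stage by 3.33 on the log2 scale (SE 0.86, adjusted p = 0.0341) when columns were read by their headers, by a limma contrast of the differences themselves. The FK866 difference of Dppa3 at the 4-cell stage less that at the late 2-cell stage was -1.90 (SE 0.28, adjusted p = 0.00365) in the same contrast. In that contrast 12.2% of 10311 genes were called, and the 4-cell FK866 group is a single library by its header. Read by the study's gene lists the same differences were -0.12 (SE 0.85, adjusted p = 0.974) for Tet3 and 0.17 (SE 0.23, adjusted p = 0.822) for Dppa3, with 0% of 9702 genes called in limma and 743 at an unadjusted p under 0.05.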

How the results depend on the processing

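Of the counts of members past the threshold, that of the early to late 2-cell step went from 1 to 0 with a pseudocount of 0.1 or after centring, and to 0 to 2 without 1 library. With NMN at the late 2-cell stage it was 0 to 1 without 1 library. Read by the gene lists it went from 2 to 1 for TSA, from 2 to 0 for Sirt1 and from 3 to 0 for 4-cell FK866. For Sirt1 it was 1 with no filter, after centring or with only the 2 groups fitted. For the late 2-cell to 4-cell step it was 1 with no filter and 0 after centring. Each of TSA, Sirt1 and that step gave 1 to 2 without 1 library. Dppa3 was the gene lost in most of these, and Tet3 passed in 11 of 11 settings for TSA and Sirt1, 10 of 11 for the late 2-cell to 4-cell step and 8 of 8 for 4-cell FK866, all by the headers, the last with a single FK866 library that was never left out. Dnmt3l with 4-cell FK866 passed in 6 of 8. These counts of settings leave out the reading by the gene lists, under which the columns headed TSA and Sirt1 are 4-cell groups. By that reading Tet3 was 1.58-fold above the late 2-cell control with TSA and 2.67-fold below it with Sirt1. It was too low to be tested with 4-cell FK866 there. Among single members 421 values kept direction and side, 25 lost and 4 gained a call, and 37 changed sign. Centring turned Tet2 at the early to late 2-cell step to -0.039, Dppa3 with late 2-cell NMN to 1.00, Dnmt1, Dnmt3l and Tet1 with TSA to 0.62, 0.067 and 0.65, Dnmt1 with Sirt1 to 0.30, and Dnmt1 and Tet1 at the 4-cell step to 0.35 and 0.27. A pseudocount of 5 turned Tet1 with late 2-cell FK866 to -0.025. The gene lists gave 1.09, -1.43, 0.70 and 0.64 for Dnmt3l, Dppa3, Tet2 and Tet3 with TSA, 0.39 and -0.83 for Dnmt3l and Dppa3 with Sirt1, -0.55 and 0.40 for Dnmt3l and Tet1 with 4-cell FK866, and 0.089 and -0.49 for Dnmt1 and Tet1 with 4-cell NMN. Without 1 library the log2 fold change ran from -0.083 to 0.72 for Tet2 at the early to late 2-cell step. For late 2-cell FK866 it ran from -0.20 to 1.24 (Dnmt1) and -0.68 to 0.70 (Tet1). For late 2-cell NMN it ran from -0.30 to 1.21 (Dnmt3l), -0.13 to 0.069 (Dppa3) and -0.11 to 0.98 (Tet3). For TSA it ran from -0.93 to 0.77 (Dnmt1) and -0.74 to 0.64 (Tet1), and for Sirt1 from -0.88 to 0.56 and -0.34 to 1.04. At the 4-cell step it ran from -0.79 to 0.65 (Dnmt1), -0.089 to 1.31 (Dnmt3b) and -0.83 to 0.55 (Tet1). Dnmt3b passed at the early to late 2-cell step (-2.22, adjusted p = 0.0313) and in the Sirt1 column (2.56, adjusted p = 0.0248) without the smaller late 2-cell control library, and with 4-cell FK866 at a pseudocount of 5 (adjusted p = 0.0245). The causes were not tested. Fitting only the 2 groups was not run where a column holds a single library, that is 4-cell FK866 and NMN by the headers and TSA and Sirt1 by the gene lists. No paired analysis was possible because the columns carry no replicate numbers. Depth limits Tdg, Dnmt3b and Tet2, which had 0 reads in some libraries.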
